A study of Mus musculus with 2 samples.

Results

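A set of 9 red cell genes was followed in ureters of newborn mice with and without Rbpj in the Tbx18 lineage. They were the globins Hba-a1, Hba-a2, Hba-x, Hbb-b1, Hbb-b2 and Hbb-y, the haem enzyme Alas2, the membrane protein Slc4a1 and the chaperone Ahsp. They were chosen by gene name among the spots that are not controls, which gave 9 genes of 29924 gene names, with 10 probes of the 39429 on the array. Each probe is a 60-base oligonucleotide spotted 4 times, so the members took up 40 spots on each array.

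Haemoglobin carries oxygen in red cells as a tetramer of alpha-type and beta-type globin chains, each holding haem. Hba-a1 and Hba-a2 encode the adult alpha chain and Hbb-b1 and Hbb-b2 the adult beta chains, while Hba-x and Hbb-y are the embryonic counterparts made early in gestation. Alas2 is the erythroid enzyme of the first step of haem synthesis, Slc4a1 encodes band 3, the anion exchanger of the red cell membrane, and Ahsp encodes a chaperone of free alpha globin. Mature red cells of mammals have no nucleus, and the youngest of them, reticulocytes, still hold globin RNA, so RNA of a tissue with blood in it contains these transcripts.

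Total RNA came from dissected ureters of NMRI mice at postnatal day 4. The Rbpj-cKO RNAs were from Tbx18(cre/+);Rbpj(fx/fx) mice, in which cre is driven from the Tbx18 locus, active in the mesenchyme around the ureteric epithelium. The control RNAs were from Tbx18(+/+);Rbpj(fx/n.d.) mice, which carry no cre and at least 1 floxed Rbpj allele, the other being undetermined. The genotypes thus differ at Tbx18 as well as at Rbpj. On array 1 the pair was labelled female and Alexa647, the red dye, marked the Rbpj-cKO RNA. On array 2 the pair was labelled male and the dyes were exchanged. How many animals gave each RNA, and whether any were pooled, is not stated in the labels, so every p-value concerns these 2 pairs only. Limma sets the spread between the pairs together with a prior taken from all tested probes. Sex label, dye and array changed together and cannot be told apart.

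Each value is either a log2 ratio, Rbpj-cKO over control within an array and below 0 where Rbpj-cKO was lower, or the normalized log2 level of 1 probe in 1 RNA. Levels of different probes are not read as amounts of their transcripts relative to each other, and brightness serves only to choose probes for comparison. Between 71.8% and 74.0% of gene spots were well above background in the 4 channels. The 2 probes of Rbpj gave mean ratios of -1.01 and -0.84, and whether they lie in the deleted part was not determined. The Y-linked genes Ddx3y and Eif2s3y had ratios of 4.23 and 4.26 on array 1, so the Rbpj-cKO RNA labelled female went against its sex label. Their levels on array 1 were 7.08 and 7.70 in control and 11.31 and 11.97 in Rbpj-cKO. On array 2 they were 13.46 and 14.25 in control and 12.92 and 14.06 in Rbpj-cKO. The Rbpj-cKO RNA of array 1 thus lay between its control and the RNAs labelled male. The ratios of array 1 therefore compare RNAs that differ in Y-linked transcripts as well as in genotype. Results without array 1 are the values of array 2, given for every member.

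The probe sequences show what each globin value can report, because several globin genes have near-identical copies. The probes of 4 globins and of Ahsp are shown 5′ to 3′ in lower case, with capitals on the longest run of bases shared with a probe of another globin gene. The Ahsp probe was not part of that comparison. For Hbb-y the dimmer of its probes is shown, which did not enter the test. The brighter Hbb-y probe, which gave the tested ratio, is not shown, and its longest shared run was 8 bases, with the Hbb-b1 probe.

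Hba-a1: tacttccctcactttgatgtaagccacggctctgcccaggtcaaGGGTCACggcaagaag
Hbb-b2: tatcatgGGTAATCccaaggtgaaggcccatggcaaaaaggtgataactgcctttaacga
Hbb-y: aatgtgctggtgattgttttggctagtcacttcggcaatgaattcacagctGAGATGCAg
Hba-x: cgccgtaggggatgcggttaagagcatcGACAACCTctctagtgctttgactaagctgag
Ahsp: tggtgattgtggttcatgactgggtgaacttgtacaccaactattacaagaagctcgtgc

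The shared runs were short, 7 bases for Hba-a1 (with Hbq1b) and Hbb-b2 (with Hbb-y). They were 8 bases for the Hbb-y probe shown (with Hbq1b) and Hba-x (with Hbb-bh2). Over all 91 pairs of the 14 globin probes, the longest run was 21 bases, between Hbq1a and Hbq1b, and the next was 8 bases. The probes are therefore distinct from each other as oligonucleotides. The transcripts they pick up are not all distinct, as the accessions deposited for each probe show.

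The Hba-a1 probe and the Hba-a2 probe each listed transcripts of both Hba-a1 and Hba-a2, so neither measures 1 alpha-globin gene alone. In RefSeq (GRCm38.p6) the sequences around the starts of these genes were identical in 297 of 297 bases compared. The Hbb-b2 probe listed Hbb-b1 and Hbb-b2. The Hbb-b1 probe listed Hbb-b1 and Hbb-bs. Hbb-b1 and Hbb-b2 are the adult genes of one haplotype of the beta-globin locus and Hbb-bs and Hbb-bt those of another, and the labels do not give the haplotype of these mice. The 5′ part of the Hbb-b1 probe matched the start of Hbb-bs in 46 of 46 bases, that of Hbb-bt in 38 of 45 bases and that of embryonic Hbb-y in 28 of 45 bases. Hba-x, both Hbb-y probes, Alas2 and Slc4a1 listed 1 gene each. None of the 4 accessions of the Ahsp probe was in the table used. The files list at most 4 accessions per probe, so further copies may be missing from these lists.

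The files place most of the probes on the genome (mm9). On chromosome 11 the alpha-globin probes lay on the plus strand in the order Hba-x (chr11:32177668-32177727), Hba-a1 (chr11:32183955-32184014) and Hba-a2 (chr11:32197245-32197304). On chromosome 7 the beta-globin probes lay on the minus strand, Hbb-b1 at chr7:110976379-110976438 and Hbb-y at chr7:111000268-111000327 and chr7:111000448-111000507. The Alas2 probe lay on the X chromosome (chrX:147004993-147005052, plus strand) and the Slc4a1 probe on chromosome 11 (chr11:102210256-102210315, minus strand), far from the globins. The files gave no position for the Hbb-b2 and Ahsp probes.

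Under loess normalization of each array, all of the adult globin, haem and membrane probes were lower in the Rbpj-cKO RNA of both pairs. The amounts were small, and none passed the test. Of all tested probes, 30.9% were lower on both arrays. Mean ratios of these 7 probes lay between -0.35 (Slc4a1, Hbb-b1) and -0.19 (Alas2), or 78.5% to 87.6% of control. Embryonic Hbb-y was the exception, with a ratio of 0.56 on array 1 and -0.01 on array 2. Hba-x was not well above background in any of the 4 RNAs. With each array centred on its median in place of loess, Hba-a1, Hba-a2 and Hbb-b2 were higher in Rbpj-cKO on array 1 (0.40, 0.44 and 0.02). In bulk RNA, fewer cells of a type and less RNA per cell cannot be told apart.

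The alpha-globin probes stood a little lower in Rbpj-cKO than in control on both arrays under loess. The level of Hba-a1 was 17.39 in control and 17.18 in Rbpj-cKO on array 1, and 17.20 and 16.97 on array 2. The groups did not overlap, although the control of array 2 and the Rbpj-cKO RNA of array 1 nearly met. The ratios of Hba-a1 were -0.22 and -0.23, with a mean of -0.22 ± 0.00658 (SD, n = 2), 85.8% of control, and an adjusted p of 0.327 in limma.

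Hba-a2, read by a probe that lists the same pair of genes, gave levels of 17.33 and 17.17 on array 1 and 17.28 and 17.02 on array 2. Both controls were above both Rbpj-cKO RNAs. Its ratios were -0.16 and -0.26, mean -0.21 ± 0.07 (SD, n = 2), with an adjusted p of 0.35 in limma. The brightness of these probes makes the ratio of a single array depend on the dye correction. With each array centred on its median in place of loess, Hba-a1 had ratios of 0.40 and -0.83 and Hba-a2 of 0.44 and -0.88, with a mean of -0.22 for each. The sign on array 1 therefore turned with this choice, and the small SD of Hba-a1 held only under loess, while the mean over exchanged dyes did not move.

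Of the beta-globin probes, Hbb-b1 had one of the lowest mean ratios among the members. Its level was 16.60 in control and 16.06 in Rbpj-cKO on array 1, and 16.10 and 15.95 on array 2. The control of array 1 stood apart above the other 3 RNAs, and the groups did not overlap. The ratios of Hbb-b1 were -0.54 and -0.16, mean -0.35 ± 0.27 (SD, n = 2), 78.6% of control, with an adjusted p of 0.331 in limma. The value of array 2 rested on 3 spots.

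Hbb-b2 had levels of 16.13 and 15.78 on array 1 and 15.67 and 15.48 on array 2. Here the groups overlapped, since the control of array 2 lay below the Rbpj-cKO RNA of array 1. The ratios were -0.35 and -0.19, mean -0.27 ± 0.12 (SD, n = 2), 83.0% of control, adjusted p = 0.306 in limma. With median centring, Hbb-b2 gave 0.02 and -0.54 and Hbb-b1 gave -0.10 and -0.58, so the sign of Hbb-b2 on array 1 turned as well.

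The embryonic globins were at or near background at this age. Hba-x had levels between 6.13 and 6.29 and was not well above background in any RNA, so it has no fold. The brighter Hbb-y probe had levels of 6.84 in control and 7.40 in Rbpj-cKO on array 1, and 6.71 in both RNAs of array 2. Only the Rbpj-cKO RNA of array 1 stood out. Its mean ratio was 0.27 ± 0.40 (SD, n = 2), with an adjusted p of 0.522 in limma, and it was well above background in 3 of 4 RNAs. In the control of array 2 only 25% of its spots were, so it entered the test through the Rbpj-cKO RNAs, and its ratio there is against a control near background. The other Hbb-y probe was well above background only in the Rbpj-cKO RNA of array 1, did not enter the test and has no fold either.

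**Figure D1:**
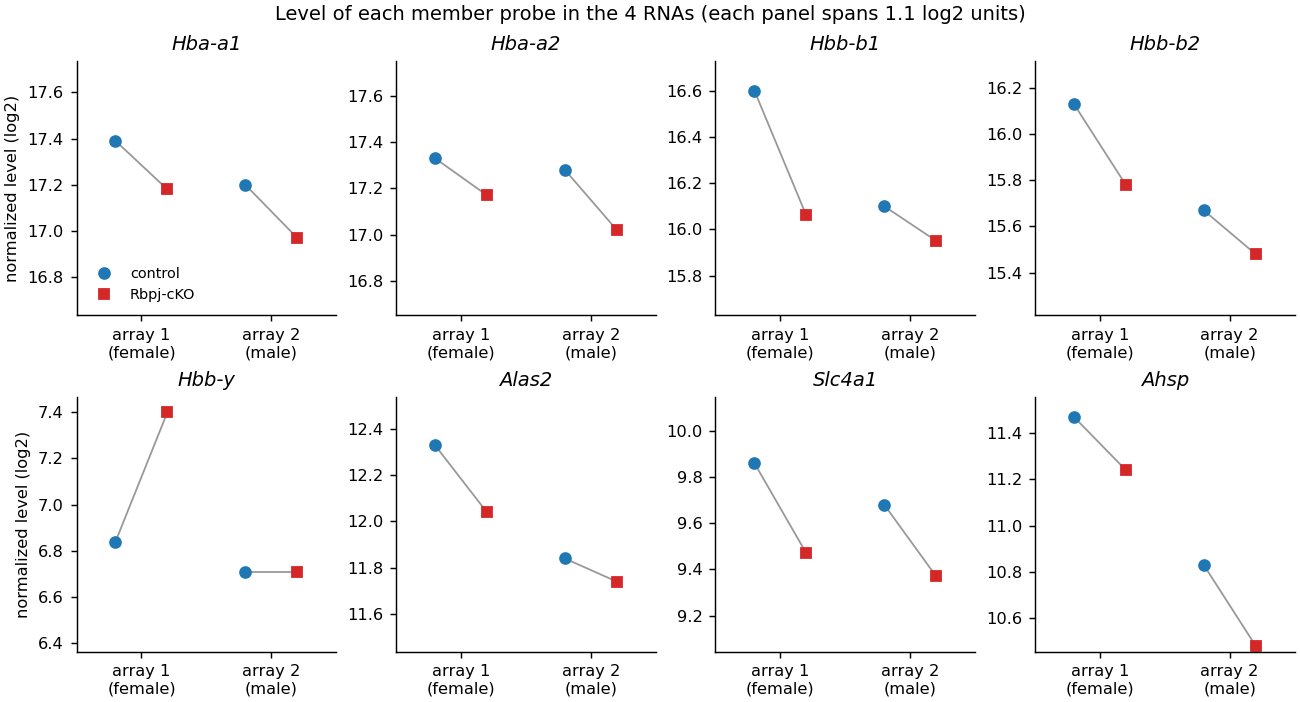
Normalized log2 level of each member probe that entered the test, in the control (circles) and Rbpj-cKO (squares) RNA of array 1 and array 2, with a line joining the RNAs of 1 array. Under loess, the lines of 7 probes slope down on both arrays. That of Hbb-y goes from 6.84 to 7.40 on array 1 and is level at 6.71 on array 2.

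Slc4a1 had the smallest p among the members. The level of this band 3 transcript was 9.86 in control and 9.47 in Rbpj-cKO on array 1, and 9.68 and 9.37 on array 2. Both controls lay above both Rbpj-cKO RNAs. The ratios were -0.39 and -0.31, mean -0.35 ± 0.06 (SD, n = 2), 78.5% of control, with an unadjusted p of 0.00719 and an adjusted p of 0.22 in limma.

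Ahsp, the alpha-globin chaperone, had levels of 11.47 and 11.24 on array 1 and 10.83 and 10.48 on array 2. The pairs were further apart than the genotypes, and the groups overlapped. Its ratios were -0.23 (3 spots) and -0.35, mean -0.29 ± 0.08 (SD, n = 2), 81.9% of control, adjusted p = 0.274 in limma.

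Alas2 showed the same layout, with levels of 12.33 and 12.04 on array 1 and 11.84 and 11.74 on array 2. The control of array 2 again lay below the Rbpj-cKO RNA of array 1. The ratios were -0.28 and -0.10, mean -0.19 ± 0.13 (SD, n = 2), 87.6% of control, adjusted p = 0.43 in limma. These ratios of Slc4a1, Ahsp and Alas2 were negative on both arrays with median centring too.

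Of the 10 member probes, 8 passed the filter on dim probes and were tested. Limma called 0 of the 8 at an adjusted p of 0.05. Of all 28182 probes tested it called 0.00355%, which is the single gene Ucp1 of brown fat. On simulated data the test called 1 of 67 changes of 1.5-fold, so it cannot decide on changes as small as the adult members'. At an unadjusted p under 0.05, 6 of the 8 were lower and 0 higher, where 7.24% of all probes were lower and 6.42% higher. This count is for loess only. With median centring the adjusted p in limma was 0.93 for Hba-a1, 0.94 for Hba-a2 and 0.743 for Hbb-b2. The ratio was negative on both arrays for 7 of the 8, against that 30.9% of all probes, and positive on both for none, against 30.2%. With median centring it was negative on both arrays for 4 of the 8 (Hbb-b1, Slc4a1, Ahsp, Alas2), and for 9370 of the 28182 probes. No member was 1.5-fold lower on both arrays, which 0.713% of all probes were, and none was 1.5-fold higher on both, which 0.33% were. Both Rbpj-cKO levels lay below both control levels for 4 of the 8 (Hba-a1, Hba-a2, Hbb-b1, Slc4a1), against 21.2% of all probes. With median centring Hba-a1 and Hba-a2 were higher in Rbpj-cKO on array 1 and leave this count, so that at most 2 of these 4 remain in it.

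The medians over the 8 tested probes were -0.26 on array 1 and -0.21 on array 2, and -0.25 for the mean ratio, while all probes had medians of -0.01, 0.01 and -0.0044. Because the globins are among the brightest probes, the 1379 other probes at least as bright as the dimmest adult globin were set beside them. Of these, 26.0% had negative ratios on both arrays and their median mean ratio was 0.02. Ranked by mean ratio, Slc4a1 had 4.68% of all probes below it, Hbb-b1 4.71%, Ahsp 6.39%, Hbb-b2 7.15%, Hba-a1 9.52%, Hba-a2 9.98% and Alas2 11.5%. The probes of Hba-a1 and Hba-a2 list the same transcripts, as those of Hbb-b1 and Hbb-b2 do in part, so the members are not independent counts.

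Other globins of the array were given the same reading. Hbb-bt, an adult beta globin, had levels of 17.04 and 16.85 on array 1 and 16.77 and 16.46 on array 2. Its ratios were -0.19 and -0.31, mean -0.25 ± 0.08 (SD, n = 2; limma adjusted p = 0.31), within the range of the adult members. With median centring they were 0.36 and -0.83, so the sign on array 1 turned as for the alpha globins. Ngb, the neuroglobin of nerve cells, was lower by more, at 10.31 and 9.71 on array 1 and 10.58 and 9.93 on array 2.

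The 2 Ngb probes had mean ratios of -0.63 ± 0.03 and -0.66 ± 0.03 (SD, n = 2), with adjusted p-values of 0.127 and 0.12 in limma. Their 4 ratios lay between -0.60 and -0.68, so both probes and both pairs gave nearly the same value. Myoglobin (Mb, -0.17 ± 0.20), the theta globin Hbq1b (-0.15 ± 0.01) and cytoglobin (Cygb, -0.15 ± 0.11), which is found in fibroblasts, had smaller ratios. The Mb and Hbq1b probes were dim, with levels of 6.88 to 7.45 and 6.79 to 7.08. The lowest level well above background was between 6.59 and 6.66 in the 4 RNAs. With the scanner log ratio Mb was at -0.37 and Hbq1b at -0.40, and the median over these other globins went from -0.17 to -0.37. Hbq1a and both Hbb-bh2 probes were not well above background in any RNA. The 5 other globin genes measured were all lower on both arrays under loess, 3 with median centring and 4 in the authors' deposited table, with 0 called by limma and 2 at an unadjusted p under 0.05.

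**Figure D2:**
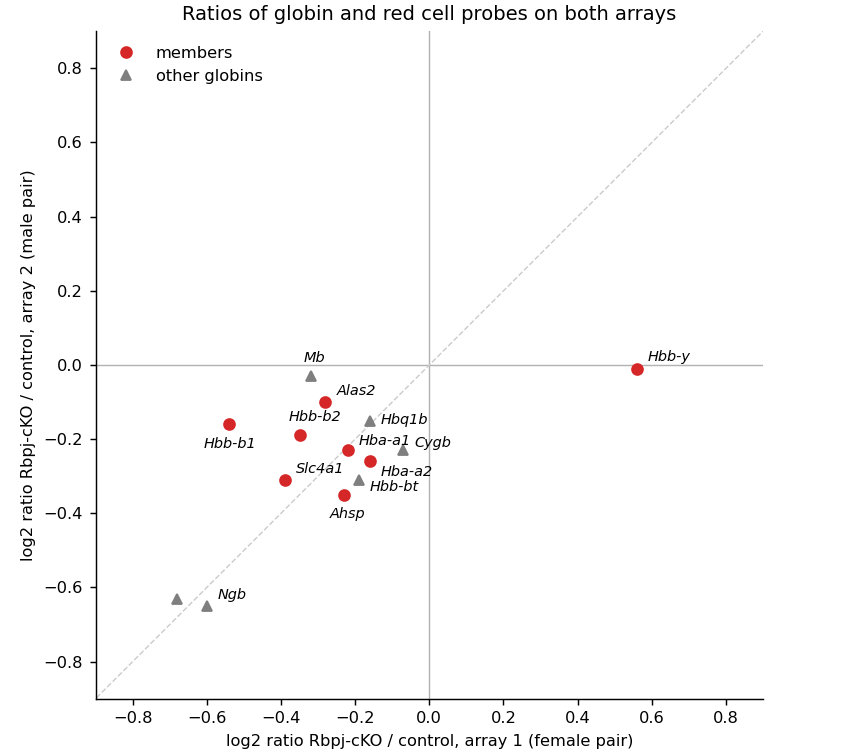
Log2 ratio of Rbpj-cKO over control on array 1 (horizontal) and array 2 (vertical) for member probes (circles) and probes of other globins (triangles) that entered the test, with a dashed line of equal ratios. Under loess, the adult globin and red cell probes lie together in the lower left. The 2 Ngb probes lie further down near the dashed line, and Hbb-y lies to the right at 0.56 and -0.01.

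The sequence before the transcription start of 5 of the 9 members is in RefSeq's table, and windows of Hbb-bs and Hbb-bt were added because probes of the adult beta globins list these genes. The 120 bases before the start are shown for an alpha globin, the 2 adult beta globins, embryonic Hbb-y and Alas2, to set the adult genes beside the embryonic one. Capitals mark GATA (or TATC), CACCC (or GGGTG) and CCAAT (or ATTGG), searched on both strands. These letters are known as binding sequences of GATA1, KLF1 and NF-Y.

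Hba-a1 (GRCm38.p6, chr11:32283552-32283671, plus strand): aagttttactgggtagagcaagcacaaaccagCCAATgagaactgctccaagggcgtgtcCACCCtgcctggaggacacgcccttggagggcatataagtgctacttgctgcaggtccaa
Hbb-bs (GRCm38.p6, chr7:103827929-103828048, minus strand): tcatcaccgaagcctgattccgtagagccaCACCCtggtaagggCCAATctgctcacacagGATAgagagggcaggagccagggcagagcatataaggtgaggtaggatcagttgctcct
Hbb-bt (GRCm38.p6, chr7:103813924-103814043, minus strand): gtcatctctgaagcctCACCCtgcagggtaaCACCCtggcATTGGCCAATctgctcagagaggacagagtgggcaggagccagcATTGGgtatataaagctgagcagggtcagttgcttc
Hbb-y (GRCm38.p6, chr7:103853208-103853327, minus strand): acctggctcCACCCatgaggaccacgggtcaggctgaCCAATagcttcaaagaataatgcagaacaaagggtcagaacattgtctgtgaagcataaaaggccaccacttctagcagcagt
Alas2 (GRCm38.p6, chrX:150547297-150547416, plus strand): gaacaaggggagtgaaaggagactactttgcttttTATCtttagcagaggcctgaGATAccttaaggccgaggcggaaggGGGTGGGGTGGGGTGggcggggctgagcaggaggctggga

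All 5 windows held CACCC, with 1 match in Hba-a1, Hbb-bs and Hbb-y, 2 in Hbb-bt and 3 adjoining matches in Alas2, and 31.7% of all 32851 windows of this length hold it. CCAAT had 1 match in Hba-a1, Hbb-bs and Hbb-y, 3 in Hbb-bt and 0 in Alas2, against 21.3% of windows with it. GATA had 1 match in Hbb-bs, 2 in Alas2 and 0 in Hba-a1, Hbb-bt and Hbb-y, against 29.5% of windows. Hbb-bs alone of these 5 held all 3 motifs, as 1.48% of all windows do. No match overlapped another. Embryonic Hbb-y had the same counts as Hba-a1, while the window of embryonic Hba-x held 1 GATA, 1 CACCC and 0 CCAAT.

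The pairs differed from each other as well as the genotypes. In the loess-normalized levels, all 8 tested members were lower on array 2 than on array 1 in both genotypes, against 26.3% of all probes. The count was not made with median centring, where the ratios of Hba-a1 were 0.40 and -0.83 and those of Hba-a2 0.44 and -0.88. The differences within a genotype are therefore shown for loess only. Ahsp differed the most, by -0.64 between the controls and -0.76 between the Rbpj-cKO RNAs, and 0.341% of all probes had a larger mean drop. Of the other members well above background in every RNA, Alas2 followed with -0.49 and -0.30, Hbb-b2 with -0.46 and -0.30 and Hbb-b1 with -0.49 and -0.11.

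The alpha globins and Slc4a1 differed less between the pairs. Hba-a1 was at -0.20 in both genotypes, Hba-a2 at -0.05 and -0.14, and Slc4a1 at -0.18 and -0.10. The median over all probes was 0.00, and the median absolute difference 0.08. Averaged over the genotypes, the difference between pairs was larger in size than the mean ratio between genotypes for Ahsp (-0.70), Hbb-y (-0.41), Alas2 (-0.40) and Hbb-b2 (-0.38). It was smaller for Hbb-b1 (-0.30), Hba-a1 (-0.20), Slc4a1 (-0.14) and Hba-a2 (-0.10). No test was run on these pair differences.

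**Figure D3:**
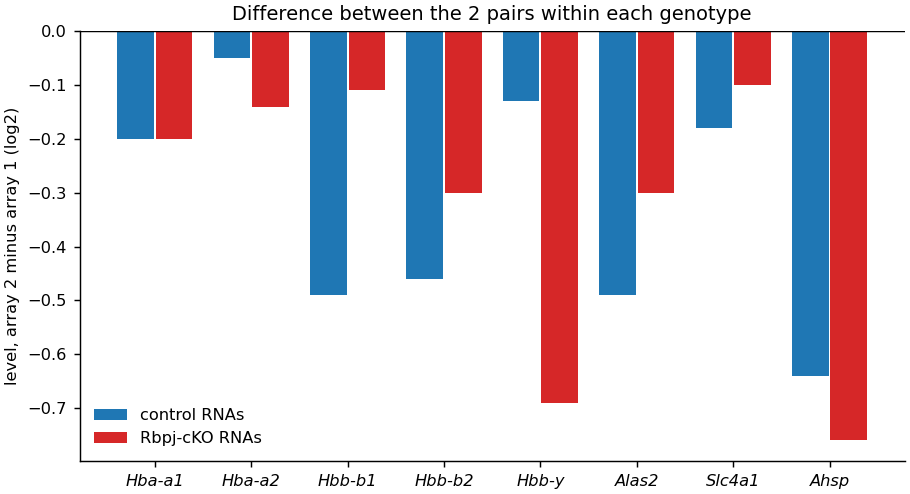
Log2 level on array 2 minus that on array 1 for each tested member probe, in control RNAs (left bars) and Rbpj-cKO RNAs (right bars). Under loess, all bars point down, from -0.05 for Hba-a2 in control to -0.76 for Ahsp in Rbpj-cKO.

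Under loess, other genes of haem and of the red cell had less even ratios than the adult members. In each of the 5 lists that follow limma called 0 genes, and the brightest probe stood for a gene. Of all tested probes, 30.9% were lower and 30.2% higher on both arrays. With median centring, 4 of the 8 tested members were lower on both arrays. The lists, in the order below, then had 8 of 13, 9 of 16, 11 of 22, 8 of 14 and 3 of 11 lower. The members did not stand apart in that count. Of 13 haem synthesis genes, 7 were lower and 3 higher on both arrays, with medians of -0.20 and -0.03 on array 1 and array 2 and 1 lower gene at an unadjusted p under 0.05. Alas1, the form of the first enzyme found in all tissues, had ratios of -1.14 and -0.18 (mean -0.66 ± 0.68), but its other probe had a mean of -0.20. Abcb6, a porphyrin transporter (-0.43 ± 0.48), and Alad, aminolevulinate dehydratase (-0.27 ± 0.35), were lower mainly on array 1.

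Of 16 measured genes of the red cell membrane and its skeleton, 7 were lower and 5 higher on both arrays, with medians of -0.03 and -0.04 and 1 gene each way at an unadjusted p under 0.05. Sptb, the beta spectrin of red cells, had levels of 8.25 and 7.76 on array 1 and 8.40 and 7.98 on array 2. Its mean ratio was -0.45 ± 0.04 (SD, n = 2; limma adjusted p = 0.172), and both controls lay above both Rbpj-cKO RNAs. Glycophorin C (Gypc) had ratios of -0.48 and 0.06, and Tmod1, which caps actin filaments, a mean of -0.20 ± 0.06. Ermap, a membrane protein of red cells, was at 0.21 ± 0.04 by its brightest probe, and its 3 probes ranged from -0.07 to 0.21.

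Of 22 measured enzymes and genes of late red cell maturation, 8 were lower and 5 higher on both arrays, with medians of -0.16 and 0.03 and 3 lower genes at an unadjusted p under 0.05. The carbonic anhydrases Car2 (-0.50 ± 0.32) and Car1 (-0.32 ± 0.16) and Trim10 (-0.25 ± 0.18) were lower on both arrays. Catalase (Cat) had ratios of -0.96 and 0.05. Several of these genes are used by many cell types, so their values do not read red cells alone.

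Of 14 measured erythroid transcription factors and receptors, 8 were lower and 3 higher on both arrays, with medians of -0.24 and -0.02 and 2 lower genes at an unadjusted p under 0.05. Tfr2, a receptor of iron-loaded transferrin, had levels of 9.38 and 8.07 on array 1 and 8.83 and 8.16 on array 2. Its mean ratio was -0.99 ± 0.46 (SD, n = 2; limma adjusted p = 0.179), and it is also made in liver. Klf1, the erythroid factor that binds CACCC sequences, had ratios of -0.22 and -0.28, mean -0.25 ± 0.04 (adjusted p = 0.3 in limma). This mean lay among those of the adult globins, but the probe was dim, with levels of 7.34 to 7.61. The Klf1 mean was -0.23 with median centring, -0.31 with a normexp offset of 16 and -0.41 with the scanner log ratio. With the scanner log ratio the adult globins ran from -0.23 (Hba-a2) to -0.35 (Hbb-b1). The stem cell factor receptor Kit (-0.46 ± 0.54) and the transferrin receptor Tfrc (-0.33 ± 0.34) were lower mainly on array 1.

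Of 11 genes that clear haemoglobin, haem and iron, 5 were lower and 2 higher on both arrays, with medians of -0.01 and -0.07, and 2 lower genes and 1 higher gene at an unadjusted p under 0.05. Haptoglobin (Hp), the plasma protein that binds free haemoglobin, had levels of 12.31 and 10.36 on array 1 and 11.40 and 10.26 on array 2. Its mean ratio was -1.54 ± 0.58 (SD, n = 2; limma adjusted p = 0.136), and it is made in liver and in fat. Haemopexin (Hpx) had opposite ratios of 0.38 and -1.81. The iron exporter ferroportin (Slc40a1) was at 0.24 ± 0.06 and ferritin heavy chain (Fth1) at -0.20 on each array, which became 0.38 and -0.80 with median centring. The count of genes lower on both arrays was then 3 of 11.

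**Figure D4:**
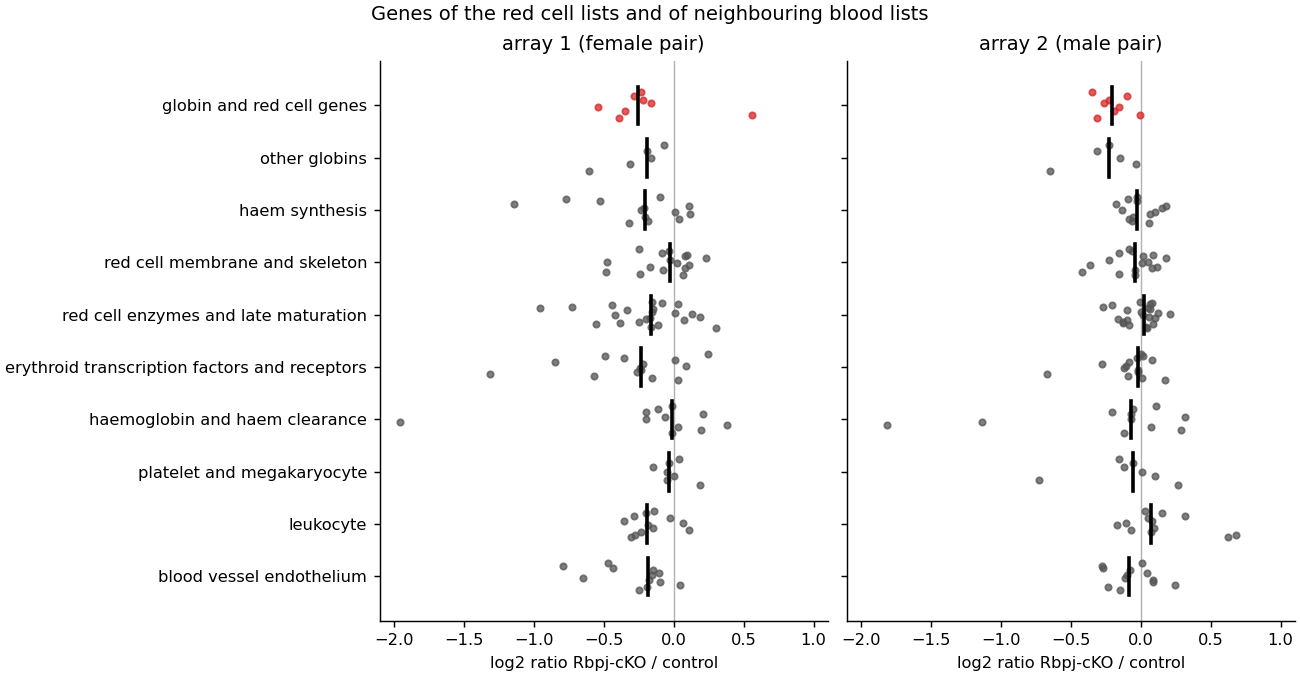
Log2 ratio of Rbpj-cKO over control for the tested genes of each list on array 1 (left) and array 2 (right), 1 point per gene, with a black bar at the list's median and the members in the top row. Under loess, the members' medians are -0.26 and -0.21. The 5 red cell and haem lists below the other globins have medians between -0.24 and -0.01 on array 1. On array 2 their medians lie between -0.07 and 0.03.

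Markers of other cells that share blood vessels or dissections with red cells were read beside the members, and their part in the members' ratios was not tested. Under loess, the members' summed level in Rbpj-cKO was 82.7% of control on array 1 and 85.7% on array 2. These sums rest mostly on the bright adult globin probes, some of which list the same genes. With median centring Hba-a1, Hba-a2 and Hbb-b2 had ratios of 0.40, 0.44 and 0.02 on array 1. The nearness of the members' sums on the 2 arrays is therefore shown for loess only. Of 12 endothelial markers, 7 were lower and 1 higher on both arrays, where 30.9% of all probes were lower and 30.2% higher. These markers had medians of -0.18 and -0.09 and summed levels of 77.4% and 94.2% of control. Claudin 5 (Cldn5) was at -0.53 ± 0.36, the VEGF receptor Kdr at -0.38 ± 0.38 and Egfl7 at -0.35 ± 0.12, none called by limma, with 3 lower markers at an unadjusted p under 0.05. Of the blood cells other than red cells, 7 of 10 platelet markers were measured and had medians of -0.04 and -0.06, with summed levels of 100% and 106.0% of control. The 12 leukocyte markers measured had medians of -0.19 and 0.08 and summed levels of 91.0% and 115.0%, and 11 of them had opposite signs on the 2 arrays.

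Fat and liver markers had far larger ratios than the members. All 10 adipocyte markers were lower on both arrays, with medians of -2.74 and -1.09 and summed levels of 18.0% and 51.4% of control, and limma called 1 of them, Ucp1. Fat holds blood vessels too, and its share of the members' ratios was not tested. The 9 measured hepatocyte markers had opposite signs on the 2 arrays, with medians of 0.60 and -2.66. The median level of these markers was 9.83 in control and 10.73 in Rbpj-cKO on array 1, and 12.60 and 11.08 on array 2. The liver of newborn mice makes red cells, and its part in the members' levels was not tested.

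Ureter muscle, lining and kidney were read in the same way, and every marker of the first 2 lists was well enough above background to be tested, as the tissue label requires. Of 7 smooth muscle markers, 5 were lower on both arrays, with medians of -0.10 and -0.36, but 1 with median centring. Of 8 urothelial markers, 3 were higher on both, with medians of 0.45 and 0.03, and 1 with median centring. Of 6 measured kidney markers, 5 were higher on both, with medians of 1.06 and 0.42 and low levels.

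The genes whose levels over the 4 RNAs ran most like the members' were sought among named genes outside the lists. Likeness was the Euclidean distance, in log2 units after centring each probe, to the median profile of the 7 members well above background in every RNA. Jade1 was nearest (0.03), then Ebf3 (0.04), Rps6ka3, Gbe1 and H3c11 (0.05 each). Jade1, which encodes a chromatin protein, had ratios of -0.37 and -0.17, and Ebf3, a transcription factor, -0.38 and -0.11. With 4 RNAs of which 2 share an array, such likeness describes these levels only.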

How the data were processed

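RNA of 2 Rbpj-cKO and control pairs was measured on 2 two-colour arrays. Agilent Feature Extraction 10.7.3.1 gave the deposited spot intensities, per the file headers. Its deposited ratio of the red to the green signal is on a log10 scale, per the file headers. The authors' deposited series table holds a score, read as a signed fold change, whose making, centring and scale are not given in the sources used here; its column medians were 1 and 31.8% and 31.6% of its values exactly 1, and it served as an alternative only.

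Mean signals were corrected with normexp on local background medians (offset 50) and each array was then loess-normalized, control spots having weight 0. Levels are from Aquantile scaling after loess. Outlier spots were dropped, 3.34% and 3.12%, no spot was saturated, and the log2 values of the 4 spots per probe, made from the deposited intensities, were averaged. A probe was tested if at least 1 genotype had over 50% of its spots well above background on each array (28182 probes). Ratios were tested against 0 with limma 3.58.1 in R 4.3.3 (two-sided, Benjamini-Hochberg over all these probes at 0.05, 1 residual degree of freedom, 4.48 with the prior). The arrays' number limits the precision. The pipeline was tested on simulated data, where it called 1 of 67 probes changed 1.5-fold, 53 of 67 changed 2-fold and 3 of 27982 unchanged.

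Members are named as in the files. For other genes, 28328 of 39429 probes were named by accession through RefSeq names of GRCm38.p6. Probe positions are those of the files (mm9), and both arrays lay on 1 slide. The members and lists were chosen with earlier results of these data known. Named genes were every member and other globin, up to 4 genes per pathway list and 3 per marker list with the largest mean ratio, and the 5 most alike in profile; 1 gene of the rule is not reported here. The plan had alternatives in background, normalization, filter, spots, probes per gene, variance, pairing and left-out arrays.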

Additional observations from a re-analysis of the deposited data

Results flagged for a closer look

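Among the named genes, the ratios of 9 had opposite signs in the pairs labelled female and male. With 1 pair of each label the difference was not tested. Embryonic Hbb-y differed by 0.56 (female pair minus male pair, log2), with ratios of 0.56 and -0.01, the latter close to 0. Of the red cell genes, Gypc differed by -0.53 (-0.48 and 0.06) and Cat by -1.01 (-0.96 and 0.05). With median centring both were negative in each pair, Gypc at -0.30 and -0.16 and Cat at -0.89 and -0.05, and Hbb-y was positive in each, at 0.56 and 0.04. Hpx differed by 2.20 (0.38 and -1.81). The neutrophil genes S100a8 and S100a9 differed by -0.96 (-0.28 and 0.68) and -0.93 (-0.31 and 0.62). The liver genes Afp, Ahsg and Serpina1a differed by 5.09, 4.13 and 3.81. Their ratios were 0.95, 0.93 and 0.79 in the pair labelled female and -4.14, -3.20 and -3.03 in that labelled male. Sex label, dye and array cannot be told apart in these values. The Rbpj-cKO RNA of the pair labelled female went against its sex label, so its control differed from it in Y-linked transcripts too.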

How the results depend on the processing

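The mean ratio of each of the 7 adult globin, haem and membrane probes kept its direction in 14 of 14 alternatives and passed the adjusted threshold in 0 of them, and Hbb-y did so in 13 of 13 where it was tested. Alternatives in the filter, the brightest probe, the variance model and the pairing reuse the same ratios, so no direction could turn in them. The counts of alternatives are therefore not counts of independent checks. The mean ratio of Slc4a1 ranged from -0.37 to -0.31 and that of Hbb-y from 0.26 to 0.68. With the 4 channels as separate samples and no replicate block, which ignores the pairing on an array, 0 probes were called. The count of called probes, 1 in the paired fit, was also 0 with median centring, the scanner log ratio, the deposited series table and the trend and robust variance model, and 3 with scaling between arrays. Probes 1.5-fold lower on both arrays numbered 201, and 339 with the scanner log ratio. Those 1.5-fold higher numbered 93, 289 with the scanner log ratio and 176 with the series table. Leaving out an array gave a median over the members of -0.26 to -0.21, and Hbb-y ranged from -0.01 (without replicate 1, its sign turned) to 0.56. No slide or scan block was run, as there was 1 of each. Hba-x and the dimmer Hbb-y probe were limited by their signal over background.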

Other observations

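A probe chosen after its values were seen, annotated in the files by a transcript of an alpha-globin pseudogene on chromosome 17 (mm9, chr17:26423752-26423916, minus strand), had levels of 9.75 in control and 9.34 in Rbpj-cKO on array 1, and 9.30 and 9.13 on array 2. Its ratios were -0.41 and -0.17, mean -0.29 ± 0.17 (SD, n = 2; limma adjusted p = 0.317), within the range of the adult globin members. Its 3 listed accessions matched no gene of the RefSeq table, and whether it picks up Hba-a1 or Hba-a2 transcripts was not tested. Embryonic Hbb-bh1 was well above background in 2 of 4 RNAs, both on array 2, where its ratio was -0.05.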
